A study of Mus musculus with 8 samples.

Results

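The genes described here encode the proteins of the cytosolic ribosome in mouse embryonic stem cells. Members were the protein-coding genes whose symbol begins with Rpl or Rps and a digit, or with Rplp or Rpsa, leaving out Rpl10l, the Rps6k kinase genes and symbols with the pseudogene suffix -ps. Of 359 loci with such a symbol, 102 were annotated as protein coding, and 85 remained after 10 Rps6k genes, 6 genes with the suffix and Rpl10l were left out. All 85 had at least 10 counts in all 8 libraries and were tested, among 43346 genes listed and 18055 genes tested. They comprised 46 genes of the large subunit, 31 of the small subunit and 7 paralogs (Rpl22l1, Rpl36al, Rpl39l, Rpl3l, Rpl7l1, Rps27l and Rps27rt). The remaining member, Rps19bp1, encodes a protein that binds ribosomal protein S19 and is not itself part of the ribosome.

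Ribosomes are built in the nucleolus from ribosomal RNA and ribosomal proteins, which are needed in matching amounts to form the large and small subunits. Most ribosomal protein mRNAs begin with a run of pyrimidines, the terminal oligopyrimidine (TOP) motif, through which mTORC1 signalling sets their translation and, in part, their stability. Several members have paralogs that can take the same place in the ribosome and are used in particular tissues, and free ribosomal proteins of the 5S particle can bind Mdm2, the ubiquitin ligase of p53. Stem cells divide fast and devote a large part of their transcription to ribosomal components.

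Total RNA was sequenced with a stranded protocol (75 nt paired-end reads), and reads were counted per gene in 4 groups of 2 libraries. All groups shared the parental 129xC57BL/6 line with Cre-ERT2 and BirA-V5 at Rosa26, grown in serum and LIF on gelatin, and this line without further change was the wild type. The knockout was TRIM71-/-, lacking an RNA-binding protein of stem cells and early embryos. The mutant was homozygous for an altered Mbnl1 3'UTR, 3'UTR(mut), and overexpression came from stable transfection of MBNL1::T2A::Puromycin, Mbnl1 encoding a regulator of splicing. Whether replicates came from separate cultures or clones, and which promoter drove the transgene, is not in the labels, and the p-values cover no more than the spread between the libraries sequenced.

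Total counts ranged from 75056306 to 86508533 per library. Trim71 stood at 629.9 and 628 CPM in both wild-type libraries, 101 and 105.4 in those of the knockout, 695 and 694 in those of the mutant and 644 and 667 under overexpression, and Mbnl1 at 25.9 and 26.1 CPM in both wild-type libraries, 48.8 and 50.9 in those of the knockout, 28.6 and 27.4 in those of the mutant and 193 and 195 under overexpression, values given as CPM (counts per 1000000 counts of the library size after TMM scaling). Mbnl1 in the mutant was not called different from wild type (log2 difference 0.11 ± 0.04, adjusted p = 0.086). All 12 listed stem cell markers reached 10 CPM, and none of 9 fibroblast and feeder markers did. Levels are shares of each library, so that fewer ribosomal protein transcripts per cell and fewer cells with many of them cannot be told apart.

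Windows around the start sites of 6 members are printed to show where runs of pyrimidines, the letters of the TOP motif, lie. They were chosen as the small subunit genes that fell furthest in overexpression (Rps12 and Rps26), a small subunit gene near the median of its subunit (Rps27), the small subunit genes that did not fall (Rps16 and Rps21), and a paralog that was called higher (Rpl22l1). Each holds 10 bases before and 20 bases from the RefSeq start (GRCm38.p6), 5′ to 3′, with the longest run of C or T in capitals.
Rps12: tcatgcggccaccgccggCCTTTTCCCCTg
Rps26: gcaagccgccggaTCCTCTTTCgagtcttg
Rps27: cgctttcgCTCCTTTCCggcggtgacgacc
Rps16: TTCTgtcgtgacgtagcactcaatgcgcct
Rps21: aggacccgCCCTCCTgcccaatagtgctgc
Rpl22l1: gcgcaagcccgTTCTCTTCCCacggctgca
These windows lie at chr10:23787190-23787219 on the minus strand, chr10:128626487-128626516 on the minus strand, chr3:90213629-90213658 on the minus strand, chr7:28350679-28350708 on the plus strand, chr2:180257369-180257398 on the plus strand and chr3:28805498-28805527 on the plus strand. Their RefSeq starts lay 120, 241, 3, 37, 2 and 72 bases from the start of the GENCODE transcript chosen for each gene, in the same order. A window may thus miss the start used in these cells. The longest runs were 11, 9, 9, 4, 7 and 10 bases, so that the window of Rps16 held no run of 6. The runs of Rps12, Rps26 and Rpl22l1 began after the RefSeq start, those of Rps27 and Rps21 spanned it, and that of Rps16 lay before it. A run of at least 6 pyrimidines stood in 36 of the 65 members with an entry (55.4%), against 9417 of 32851 promoters of the same table (28.7%). Rps21, which did not fall, and Rps27, which did, both had such a run, and a match describes these letters only.

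Ribosomal protein transcripts made up a smaller share of the library in Mbnl1 overexpression than in the other groups. The 85 members took 6.91 and 6.93% of all counts in wild type, 6.92 and 6.95% for the knockout, 6.53 and 6.72% for the mutant and 6.01 and 6.06% in overexpression. Both overexpression libraries lay below the other 6, and both mutant libraries lay between them and the wild type, whereas knockout and wild type lay between 6.91 and 6.95%. Pseudogene loci with ribosomal protein symbols held counts equal to 1.30 to 1.39% of those of the members. Between 3.60 and 6.48% of each library fell on loci that resemble ribosomal RNA, with the highest share in wild-type replicate 1. TMM factors computed without these loci left 75 of 85 members called in overexpression (55.0% of all genes called), against 77 (54.8%).

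Summed over the large subunit, levels were 40757 and 39748 CPM in wild type, 40171 and 40127 CPM for the knockout, 38975 and 39418 CPM for the mutant and 33964 and 34704 CPM in overexpression. The small subunit sums were 29139 and 28460.0 CPM in wild type, 28730.3 and 28550.3 CPM for the knockout, 26991 and 28176 CPM for the mutant and 23211 and 23950 CPM in overexpression. Both subunits were lowest in overexpression, with no overlap with any other group. The ratio of the large to the small subunit sum was 1.399 and 1.397 in wild type, 1.398 and 1.405 for the knockout, 1.444 and 1.399 for the mutant, and 1.463 and 1.449 in overexpression. Overexpression thus held the highest ratios, and mutant replicate 1 came next, apart from mutant replicate 2. These sums and ratios are descriptions with no test.

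**Figure D1:**
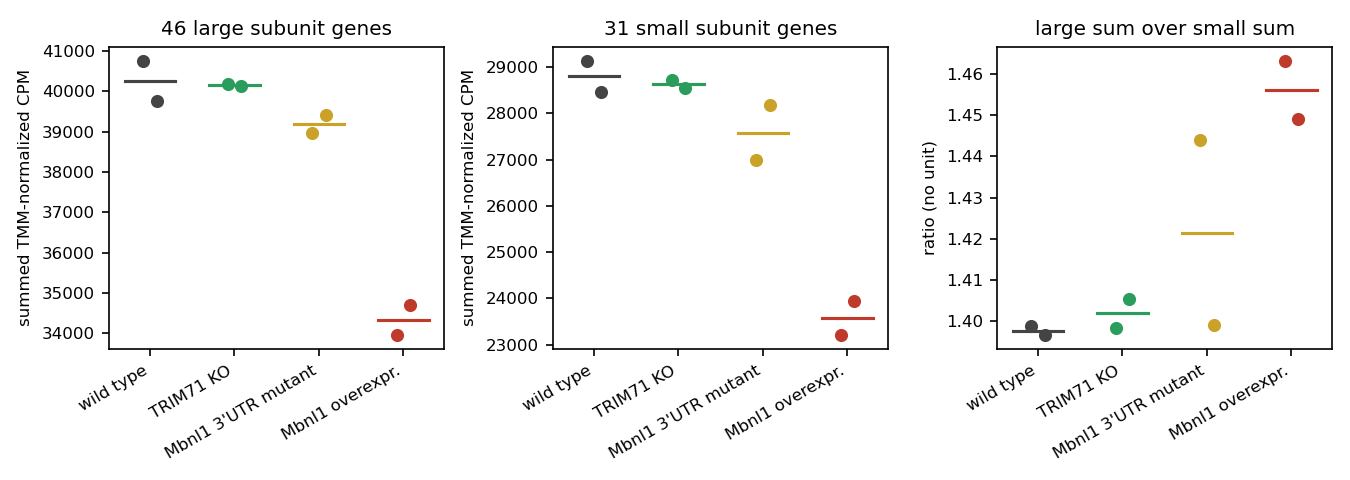
Summed TMM-normalized CPM of the 46 large subunit genes (left) and 31 small subunit genes (middle), and the ratio of both sums (right), per library, with points for libraries and lines for the mean of 2. The overexpression libraries hold the lowest sums (33964 and 34704 CPM; 23211 and 23950 CPM) and the highest ratios (1.463 and 1.449).

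Levels per kb of transcript in wild type had a median of 946 CPM per kb over the large subunit genes (quartiles 668 and 1331) and 1203 CPM per kb over the small subunit genes (quartiles 904 and 1475). The medians in overexpression were 835 and 974 CPM per kb. Rps12 had the highest level per kb in wild type, 2604 CPM per kb, followed by Rpl7 with 2487 CPM per kb. Rpl24 had the lowest of the large subunit, 2.75 CPM per kb, with 124 to 174 counts per library, and it overlaps Gm28037 on the same strand. Rates per kb depend on the transcript chosen for each gene, and Rps15a and Rps20 were represented by transcripts of several kb.

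In the comparison of Mbnl1 overexpression with wild type, 73 of 85 members fell, 4 rose and 8 were not called at an adjusted p under 0.05 (edgeR's quasi-likelihood test, Benjamini-Hochberg over all genes tested). Of all 18055 genes tested, 54.8% were called, 27.7% higher and 27.2% lower, and of the 2274 genes with a mean of 100 CPM or more, 67.2% were called, 25.6% higher and 41.6% lower. The median log2 change was -0.24 over the members (1.18-fold lower), -0.01 over all genes tested and -0.06 over genes of 100 CPM or more. Both overexpression libraries lay below both wild-type libraries for 77 members (90.6%), against 38.8% of all genes and 51.9% of genes of 100 CPM or more. The falls were thus small and shared by nearly the whole set, and the plot of change distributions shows the members as a narrow peak to the left of 0. Leaving out each library in turn gave member medians of -0.25 to -0.22. Scaling by library size alone left 66 lower and 4 higher, beside 54.3% of all genes called. The median was then -0.19, against 0.04 for all genes.

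**Figure D2:**
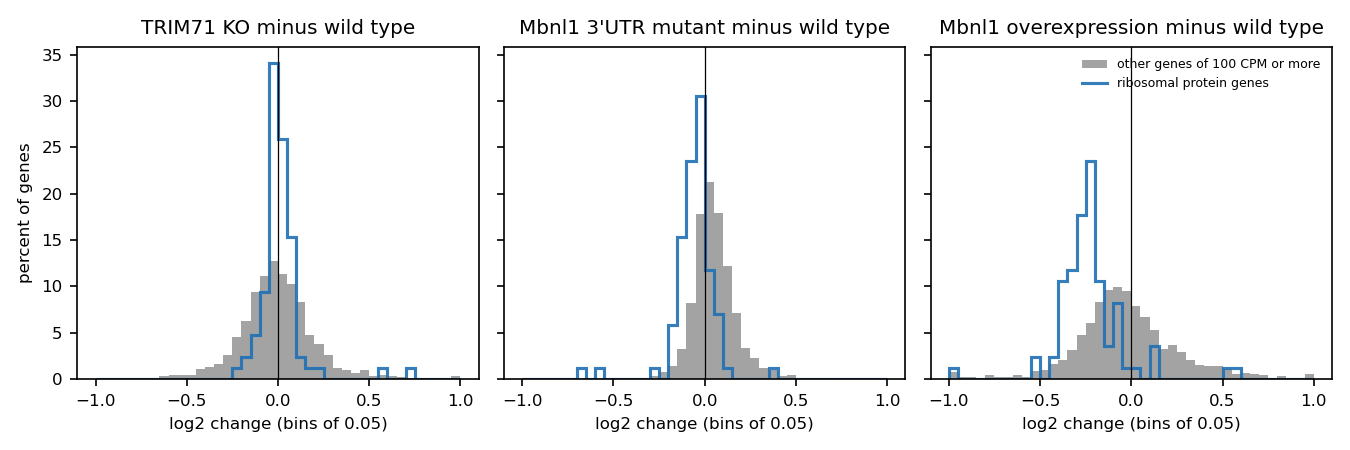
Distribution of log2 changes against wild type in bins of 0.05 (horizontal axis) as percent of genes (vertical axis), for the ribosomal protein genes (blue outline) and the other genes of 100 CPM or more (grey), with values beyond 1 placed in the end bins. Member medians are -0.00 for the knockout, -0.04 for the mutant and -0.24 in overexpression.

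Of the large subunit genes, 40 of 46 fell, 1 rose and 5 were not called (median log2 change -0.23). Of the small subunit genes, 29 of 31 fell, 1 rose and 1 was not called (median -0.29). The quartiles of the changes ran from -0.28 to -0.17 in the large subunit and from -0.35 to -0.24 in the small subunit. In overexpression replicate 1 the medians against the wild-type mean were -0.23 and -0.32, and in replicate 2 they were -0.22 and -0.26, so that the small subunit lay lower in both libraries. Of the 7 paralogs, 4 fell, 2 rose and 1 was not called.

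The furthest fall among core ribosomal proteins was that of Rps12, a protein of the small subunit's beak encoded at chr10:23785183-23787275 (mm10), with 1294 and 1279 CPM in both wild-type libraries, 1249 and 1229 in those of the knockout, 1242 and 1262 in those of the mutant and 896 and 911 under overexpression. Both overexpression libraries were lower than all 6 others (log2 change -0.51 ± 0.03, adjusted p = 7.61e-10). The 12 tested genes within 1 Mb of Rps12 that are no members had a median log2 change of -0.49 in the same comparison. Among these 12 were 3 small nucleolar RNA genes that lie within Rps12 itself, Snora33 (-0.76), Gm23130 (-0.44) and Snord100 (-0.34). The part of these genes in the change of Rps12 was not tested. Rps26, which lines the channel where mRNA leaves the small subunit, stood at 580.3 and 564 CPM in both wild-type libraries, 597 and 587 in those of the knockout, 608 and 589 in those of the mutant and 419.8 and 423 under overexpression. Both overexpression libraries were again the lowest of the 8 (log2 change -0.44 ± 0.03, adjusted p = 5.99e-09). Rps27a, made as a fusion with ubiquitin, stood at 809 and 830.4 CPM in both wild-type libraries, 780.2 and 736 in those of the knockout, 708 and 797 in those of the mutant and 595 and 647 under overexpression, with a change of -0.40 ± 0.06, adjusted p = 9.24e-05. Its overexpression libraries were lowest, and mutant replicate 1 was the next. Rpl34, of the large subunit, stood at 299.6 and 298 CPM in both wild-type libraries, 296 and 286 in those of the knockout, 259 and 298 in those of the mutant and 221 and 233 under overexpression, with a change of -0.40 ± 0.06, adjusted p = 7.39e-05. Rps4x, the X-linked S4 protein, changed by -0.40 and Rpl22, an RNA-binding protein of the large subunit, by -0.40 on the log2 scale, both called lower.

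Genes for proteins of the stalk, which recruits elongation factors to the large subunit, were called lower in overexpression. So were 40 of all 46 large subunit genes, these included (median -0.23). Rplp0, the base of the stalk, stood at 3259.5 and 3014 CPM in both wild-type libraries, 2761 and 2752 in those of the knockout, 2935 and 3019.7 in those of the mutant and 2371 and 2514 under overexpression. Overexpression was lowest, and both knockout libraries also lay under both wild-type libraries. The acidic proteins that hang from Rplp0 were Rplp1, at 1188 and 1112 CPM in both wild-type libraries, 1125 and 1118 in those of the knockout, 1004 and 1116 in those of the mutant and 907 and 962 under overexpression, and Rplp2, at 859 and 850.4 CPM in both wild-type libraries, 848 and 844 in those of the knockout, 826 and 837 in those of the mutant and 704 and 714 under overexpression. Both were lowest in overexpression. The changes there were -0.36 ± 0.04, adjusted p = 1.12e-06 for Rplp0, -0.30 ± 0.05, adjusted p = 9.23e-05 for Rplp1 and -0.27 ± 0.03, adjusted p = 1.93e-06 for Rplp2.

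Rpl10, which joins the large subunit late in its assembly, stood at 936 and 941 CPM in both wild-type libraries, 935 and 936 in those of the knockout, 815 and 903 in those of the mutant and 734 and 773 under overexpression. Overexpression was lowest, mutant replicate 1 came next, and the change in overexpression was -0.32 ± 0.04, adjusted p = 7.35e-06. Rpl3, which reaches the peptidyl transferase centre, stood at 1247 and 1247 CPM in both wild-type libraries, 1298 and 1294 in those of the knockout, 1124 and 1265 in those of the mutant and 1078 and 1134 under overexpression. In the mutant its replicates lay on both sides of wild type, and in overexpression it changed by -0.17 ± 0.05, adjusted p = 0.00435. Rpl3 lost its call without overexpression replicate 1, and pseudogene loci named for it held counts equal to 14.4% of its own.

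The partners that bind 5S ribosomal RNA and can bind Mdm2 differed in their calls. Rpl5 stood at 967 and 992 CPM in both wild-type libraries, 985 and 968 in those of the knockout, 1018 and 977 in those of the mutant and 829 and 819.9 under overexpression, with both overexpression libraries lowest (log2 change -0.25 ± 0.04, adjusted p = 9.85e-06). Rpl11 stood at 429 and 415 CPM in both wild-type libraries, 444 and 446 in those of the knockout, 450.5 and 437 in those of the mutant and 406 and 406 under overexpression. Its overexpression libraries lay below both wild-type libraries by a small margin, and the change was not called (-0.06 ± 0.03, adjusted p = 0.174). The difference between both genes was not tested.

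In the small subunit, Rps6, the substrate of the S6 kinases, stood at 562 and 545 CPM in both wild-type libraries, 572 and 570.3 in those of the knockout, 549.9 and 541 in those of the mutant and 446 and 456 under overexpression (log2 change in overexpression -0.30 ± 0.03, adjusted p = 8.02e-07). Rpsa, known also as a laminin receptor, stood at 2392 and 2314 CPM in both wild-type libraries, 2404 and 2428 in those of the knockout, 2286 and 2209 in those of the mutant and 1841 and 1831 under overexpression (-0.36 ± 0.04, adjusted p = 1.49e-07). Both genes were lowest in overexpression, and neither was called in the knockout or the mutant. Rps19, needed to mature the small subunit, stood at 832 and 821 CPM in both wild-type libraries, 791 and 813 in those of the knockout, 712 and 763 in those of the mutant and 648 and 683 under overexpression, with both mutant libraries under wild type and overexpression under the mutant (log2 changes -0.16 ± 0.04, adjusted p = 0.00775 in the mutant and -0.31 ± 0.04, adjusted p = 2.88e-06 in overexpression). Rps2 showed the smallest called fall of its subunit, with 1524 and 1425 CPM in both wild-type libraries, 1576 and 1550.0 in those of the knockout, 1490.5 and 1539 in those of the mutant and 1369.7 and 1384 under overexpression and a change of -0.10 ± 0.04, adjusted p = 0.0367. Rps2 passed the test in 7 of 17 alternatives (highest adjusted p 0.404). The alternatives that lost its call included those without wild-type replicate 1, either knockout replicate or either overexpression replicate, and library size scaling.

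Among the exceptions, Rps16, a protein of the small subunit's head, was called higher in all 3 altered lines, which share the wild-type libraries as controls. It stood at 291 and 301 CPM in both wild-type libraries, 355 and 347 in those of the knockout, 383 and 389 in those of the mutant and 322 and 326 under overexpression. All 6 altered libraries lay above both wild-type libraries, and the mutant was highest. The log2 changes were 0.25 ± 0.03, adjusted p = 1.23e-05 for the knockout, 0.38 ± 0.03, adjusted p = 4.15e-07 for the mutant and 0.13 ± 0.03, adjusted p = 0.00346 in overexpression, and all were called in each of 17 alternatives. Between altered lines, the knockout lay -0.14 from the mutant and overexpression -0.25 from the mutant, both called lower than the mutant; the first call was lost without knockout replicate 2.

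Rpl28, a protein of the large subunit, stood at 364 and 347 CPM in both wild-type libraries, 382 and 379 in those of the knockout, 396 and 369.9 in those of the mutant and 389 and 377 under overexpression, with both overexpression libraries above both wild-type libraries (log2 change 0.11 ± 0.04, adjusted p = 0.0266). The call was lost without wild-type replicate 2 and without overexpression replicate 1. Rps21, a short protein of the small subunit, stood at 582 and 589.9 CPM in both wild-type libraries, 589 and 577 in those of the knockout, 489 and 574 in those of the mutant and 612 and 675 under overexpression. Its overexpression libraries were the highest of the 8, yet the change was not called (0.13 ± 0.08, adjusted p = 0.184). Rps21 is encoded at chr2:180257377-180258445 (mm10), and the 41 tested genes within 1 Mb that are no members had a median log2 change of 0.56 in the same comparison, and their part was not tested. The other members not called were Rpl11, Rpl21, Rpl24, Rpl29, Rpl31, Rpl7l1 and Rps19bp1, of which Rpl24, Rpl7l1 and Rps19bp1 overlapped with wild type.

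**Figure D3:**
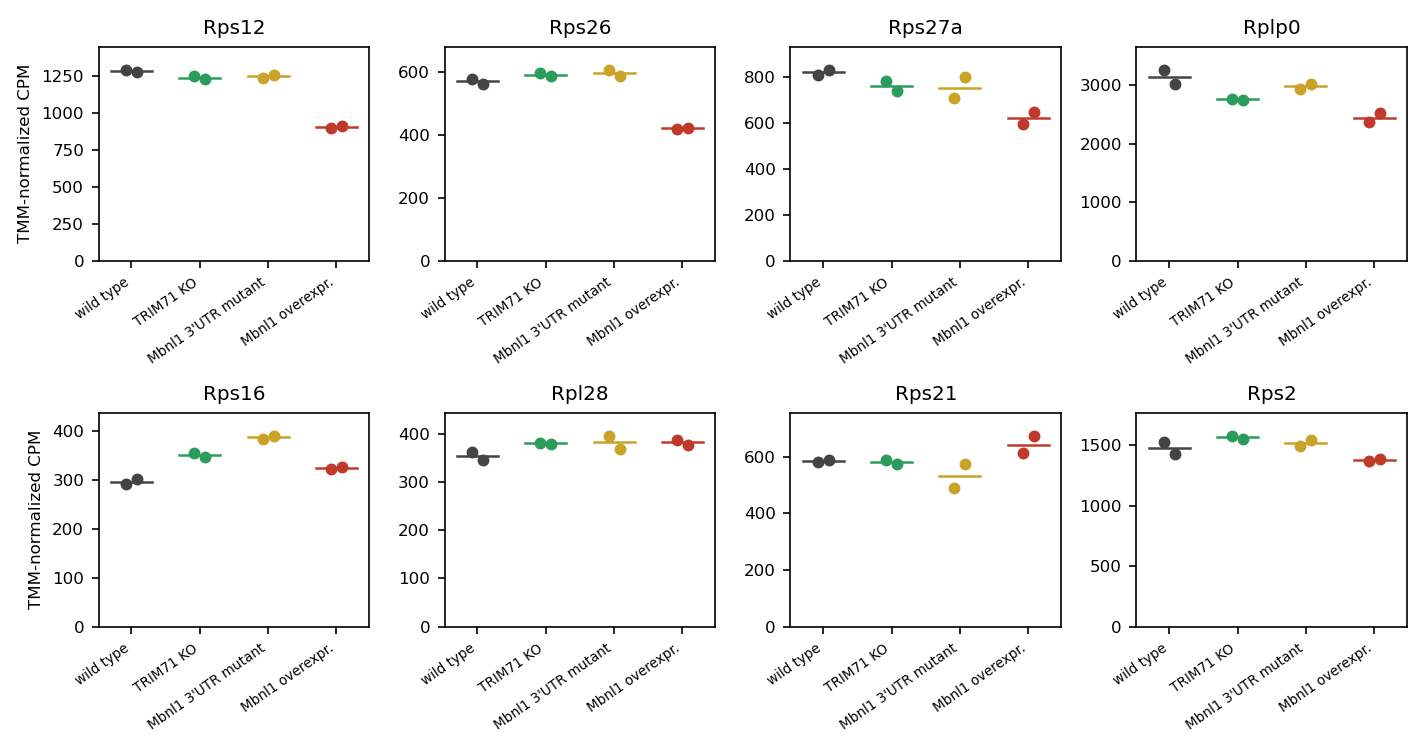
TMM-normalized CPM (vertical axes from 0) of 8 members in every library, with points for libraries and lines for the mean of 2 in each group. Rps12, Rps26, Rps27a and Rplp0 are lowest in overexpression, Rps16 is higher than wild type in all altered lines, and Rps21 reaches 612 and 675 CPM in overexpression.

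Features of the members were set beside their change in overexpression, over the 76 core members that remained without Rpl24. Across genes, Spearman's rho was 0.08 with transcript length, -0.09 with mean level, 0.06 with the number of pseudogenes and 0.22 with the median change of neighbouring genes. None of these was strong, and genes are not independent replicates. The neighbouring genes included small nucleolar RNA genes that lie within members, so that the last correlation partly sets a gene beside transcripts of its own locus. Of 115 other genes of 100 CPM or more with a transcript under 1 kb, 56 fell and 14 rose (median -0.13), against 818 lower and 566 higher of 2076 with longer transcripts (median -0.05). The part of transcript length in the members' fall was not tested.

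Annotated small nucleolar RNA (snoRNA) genes lie on the same strand within 30 members; snoRNAs guide the modification of ribosomal RNA. In overexpression, 28 of 30 hosts fell (median -0.24), as did 45 of 55 members without snoRNA genes (median -0.24), beside 27.2% of all genes and 41.6% of genes of 100 CPM or more called lower. Of the 58 snoRNA genes, 38 were tested, in 22 hosts, at a median of 1.56 CPM. In the knockout, 35 of these 38 had a log2 change under 0 (median -0.37), against 9182 of all 18055 genes tested. Of the 38, 10 were called, each lower, beside 20.9% of all genes called lower. The 30 host genes had a median of -0.00 with 3 rises and 1 fall, beside 24.2% of all genes called higher and 20.9% lower. In overexpression 37 of 38 lay under 0 (median -0.33), against 9230 of 18055 genes, with 8 called lower, beside 27.2% of all genes. In the mutant 23 of 38 lay under 0 (median -0.02), against 9308 of 18055 genes, and 0 were called, beside 16.0% of all genes.

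Most ribosomal protein genes lay near their wild-type level in the TRIM71 knockout line. In the knockout 9 of 85 members rose, 5 fell and 71 were not called, beside 45.1% of all genes tested called (24.2% higher, 20.9% lower) and 51.9% of genes of 100 CPM or more (24.5% higher, 27.5% lower). The median log2 change was -0.00 over the members and -0.01 over all genes tested. The large subunit had 4 rises and 4 falls among 46 genes, and the small subunit 2 rises among 31. The member median was -0.01 without wild-type replicate 2, and 0.00 without either knockout replicate, but fewer members were called in each case. Rps16, Rpl7l1, Rps27l, Rplp0 and Rpl30 were called in each of 17 alternatives.

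The knockout's changes were led by paralogs, described further on. Among core members, Rplp0 changed by -0.19 ± 0.04, adjusted p = 0.00151, with 2761 and 2752 CPM against 3259.5 and 3014 CPM in wild type. Rpl30, a large subunit protein that in yeast can repress the splicing of its own transcript, stood at 402 and 414 CPM in both wild-type libraries, 371 and 366 in those of the knockout, 398 and 406 in those of the mutant and 314 and 310.0 under overexpression. Both knockout libraries lay under wild type and the mutant (log2 change -0.15 ± 0.03, adjusted p = 0.00156), and overexpression was lower still. Rps10, which is ubiquitinated on stalled ribosomes, stood at 467 and 450.4 CPM in both wild-type libraries, 511 and 507 in those of the knockout, 405 and 453 in those of the mutant and 368 and 394 under overexpression. It was highest in the knockout (log2 change 0.15 ± 0.05, adjusted p = 0.0179) and lowest in overexpression (-0.27 ± 0.05, adjusted p = 0.000183). Smaller called rises, all of large subunit genes, were those of Rpl27a (0.13), Rpl28 (0.10), Rpl17 (0.10) and Rpl31 (0.09), and smaller called falls those of Rpl22 (-0.13) and Rpl15 (-0.09). Rpl27a was at 520.3 and 511 CPM against 482 and 459 CPM in wild type, Rpl17 at 799.5 and 787 against 741 and 740.3 CPM and Rpl15 at 705 and 708 against 755 and 746 CPM. Replicates of these genes did not overlap between both groups, but lay near each other. Of these, Rps10 lost its call without wild-type replicate 2 or either knockout replicate, and so did Rpl28, Rpl17, Rpl31 and Rpl15. Rpl27a lost its call without wild-type replicate 2 or knockout replicate 1, and Rpl22 without knockout replicate 2. Rpl17, Rpl31 and Rpl15 also lost theirs without wild-type replicate 1, all 4 of Rpl28, Rpl17, Rpl31 and Rpl15 without overexpression replicate 2, and Rpl15 without overexpression replicate 1.

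In the Mbnl1 3'UTR mutant 1 member rose, 5 fell and 79 were not called, beside 16.0% of all genes called (8.32% higher, 7.69% lower) and 25.5% of genes of 100 CPM or more (21.7% higher, 3.87% lower). The median log2 change was -0.04 over the members and 0.04 over genes of 100 CPM or more. Rps16 was the rise, and Rpl39l, Rps14, Rps4x, Rps19 and Rps27l fell. Rps14, a protein near the small subunit's mRNA channel, stood at 761 and 744 CPM in both wild-type libraries, 727 and 709.6 in those of the knockout, 623 and 702 in those of the mutant and 608 and 658 under overexpression. Both mutant libraries lay under both wild-type libraries (log2 change -0.18 ± 0.05, adjusted p = 0.0285). Among the 46 large subunit genes edgeR called 0, with 11 at an unadjusted p under 0.05 and 1 called by DESeq2, and among the 31 small subunit genes 4 were called. Both mutant libraries lay below both wild-type libraries for 37 members (43.5%), against 27.0% of all genes and 15.5% of genes of 100 CPM or more.

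The mutant libraries differed from each other more than those of other groups. The median absolute log2 difference between the replicates of a group was 0.07 over the members in the mutant, against 0.04 in wild type, 0.02 in the knockout and 0.03 in overexpression. Small subunit genes were higher in mutant replicate 2 than in replicate 1 by a median of 0.07. Rps4x stood at 1823 and 1786 CPM in both wild-type libraries, 1739 and 1721 in those of the knockout, 1513 and 1686 in those of the mutant and 1341 and 1399 under overexpression, and its mutant libraries lay apart by more than those of any other group. The median log2 change over the members was -0.06 without mutant replicate 2 and -0.03 without wild-type replicate 1. The count of called members was 21 without a filter on low counts (12.2% of all genes called) and 11 with scaling by library size alone (15.4%). It was 10 with a mean of at least 1 CPM (21.2%) and 2 in a fit of only the groups compared (11.6%). Rps16 and Rpl39l were called in all of these; Rps14, Rps4x and Rps19 lost their calls without wild-type replicate 1 and without mutant replicate 1, and Rps14 and Rps27l theirs without wild-type replicate 2.

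**Figure D4:**
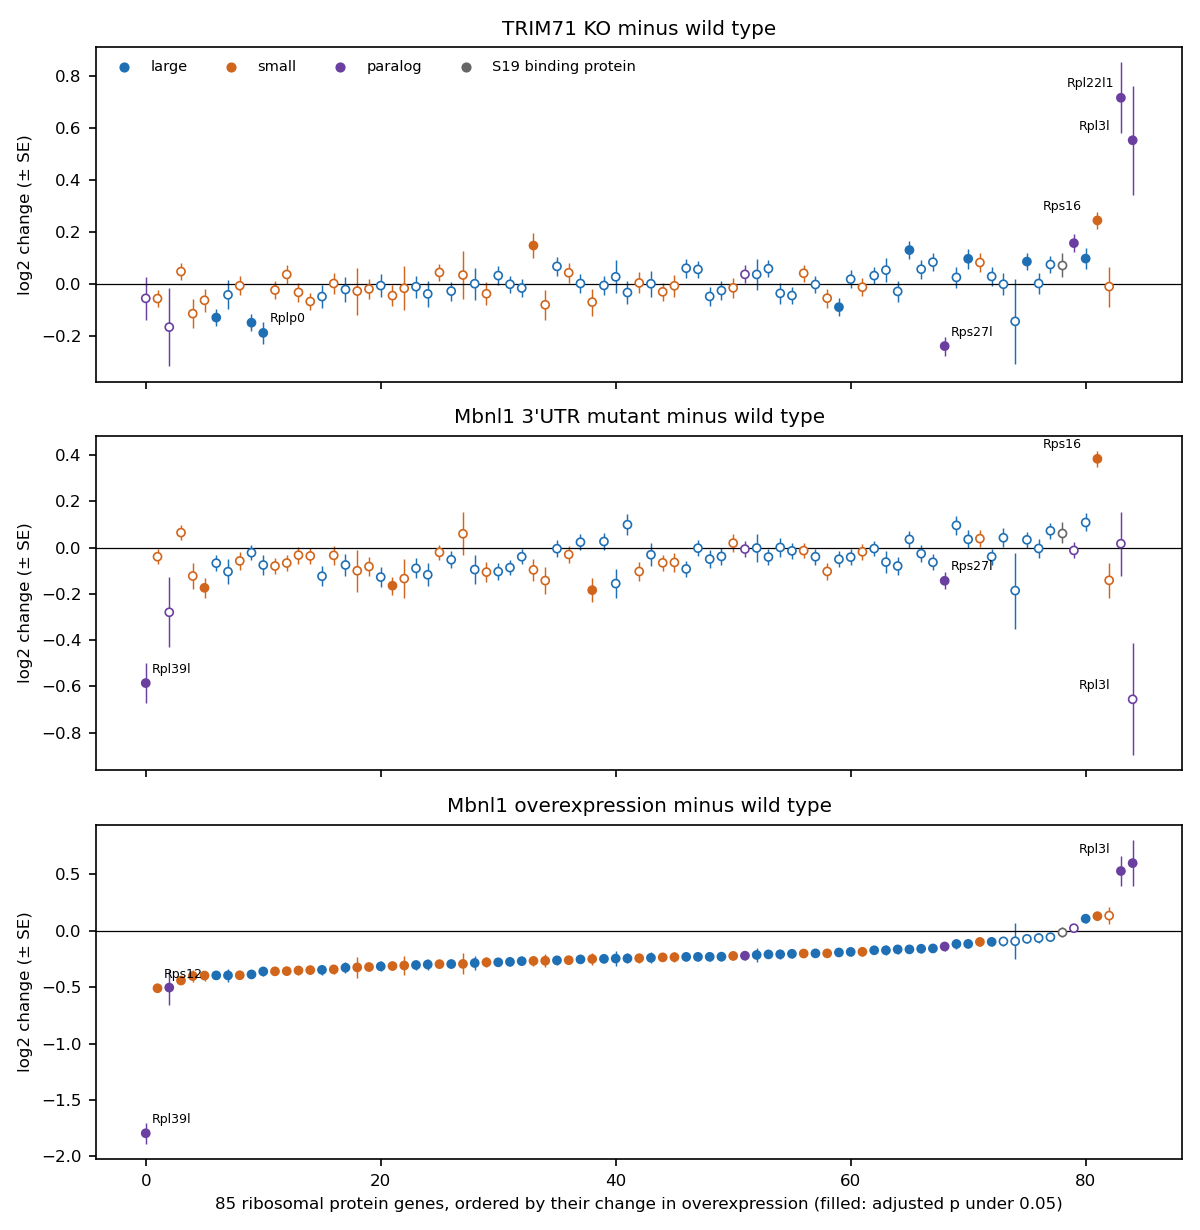
Log2 change against wild type with its standard error (vertical axes, with different ranges) for each of the 85 members (horizontal axis, ordered by the change in overexpression) for the knockout (top), mutant (middle) and overexpression (bottom). Filled points passed the adjusted p of 0.05; 73 filled points lie below 0 in overexpression, 5 in the knockout and 5 in the mutant.

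The altered lines were also set against each other. The knockout lay above overexpression for 75 members and below it for 1, Rps27l, beside 54.8% of all genes called, 27.5% higher and 27.2% lower (median log2 difference 0.25). Rps27l lost that call when any 1 of the 4 libraries compared was left out. Overexpression lay below the mutant for 67 members and above it for 3, beside 52.1% of all genes called, 26.7% higher and 25.4% lower (median -0.19). The 3 were Rpl3l (1.26), Rpl22l1 (0.51) and Rps21 (0.28 ± 0.08, adjusted p = 0.0195). Rps21 lost its call without either wild-type replicate or overexpression replicate 2, and Rpl22l1 without these or either knockout replicate. The knockout lay above the mutant for 18 members and below it for 5, beside 45.7% of all genes called, 24.4% higher and 21.3% lower. The count moved with the libraries kept. The member median was 0.06 with all libraries, 0.08 without mutant replicate 2 and 0.05 without either knockout replicate. Rps10 had the largest difference between knockout and mutant among core members (0.25 ± 0.05, adjusted p = 0.000545), after the paralogs Rpl3l (1.21), Rpl22l1 (0.70) and Rpl39l (0.53).

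Paralogs moved in both directions, as the values of each show. Ratios of 6 paralogs to their partner were compared over all 8 libraries with an exact permutation test of the spread between groups, with Benjamini-Hochberg values over the 6 ratios. The smallest p this design allows is 0.00952. Rpl22l1 encodes a paralog of Rpl22, which binds RNA outside the ribosome too. Rpl22 stood at 518 and 525 CPM in both wild-type libraries, 484 and 471 in those of the knockout, 501 and 495 in those of the mutant and 392 and 402 under overexpression, and Rpl22l1 at 71.3 and 73.6 CPM in both wild-type libraries, 121 and 117 in those of the knockout, 64.4 and 82.2 in those of the mutant and 97.6 and 112 under overexpression. Both knockout and both overexpression libraries were above both wild-type libraries for Rpl22l1 and below them for Rpl22.

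As a share of Rpl22 counts, Rpl22l1 held 13.8 and 14.0% in wild type, 25.03 and 24.8% for the knockout, 12.8 and 16.6% for the mutant and 24.9 and 27.8% in overexpression. Knockout and overexpression did not overlap with wild type or the mutant, whose own replicates lay on both sides of wild type. The exact permutation test over all 4 groups gave p = 0.0762 (adjusted 0.0914), and p = 0.0190 when either mutant replicate was left out. In edgeR, Rpl22l1 changed by 0.72 ± 0.14, adjusted p = 0.0131 in the knockout and 0.53 ± 0.14, adjusted p = 0.0284 in overexpression. Both calls were lost when either wild-type replicate or either knockout replicate was left out, and the second also without overexpression replicate 2 (highest adjusted p 0.0832 and 0.135).

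Rpl39 lines the exit tunnel for nascent peptides, and its paralog Rpl39l is known from the male germ line. Rpl39l stood at 6.68 and 6.31 CPM in both wild-type libraries, 6.31 and 6.20 in those of the knockout, 4.21 and 4.45 in those of the mutant and 1.88 and 1.85 under overexpression, and Rpl39 at 404 and 409 CPM in both wild-type libraries, 401 and 387 in those of the knockout, 353 and 393 in those of the mutant and 314 and 325 under overexpression. Rpl39l was highest in wild type and knockout, lower in the mutant and lowest in overexpression, with no overlap between these 3 levels. It changed by -0.05 ± 0.08, adjusted p = 0.632 for the knockout, -0.59 ± 0.09, adjusted p = 0.0001 for the mutant and -1.80 ± 0.09, adjusted p = 3.31e-11 in overexpression. Its counts were 1.66 and 1.54% of those of Rpl39 in wild type, 1.58 and 1.61% for the knockout, 1.19 and 1.13% for the mutant and 0.602 and 0.572% in overexpression (exact permutation p = 0.0286, adjusted 0.0571). The mutant and overexpression calls of Rpl39l held in each of 17 alternatives.

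Rps27l, a paralog of Rps27 and a known target of p53, stood at 178 and 188 CPM in both wild-type libraries, 157 and 153 in those of the knockout, 164 and 167 in those of the mutant and 165 and 167 under overexpression. All 6 altered libraries lay below both wild-type libraries, and the knockout was lowest (log2 change -0.24 ± 0.04, adjusted p = 3.86e-05). The changes were -0.14 ± 0.04, adjusted p = 0.0108 in the mutant and -0.14 ± 0.04, adjusted p = 0.00327 in overexpression, and both calls were lost without wild-type replicate 2, the latter also without overexpression replicate 1. Rps27 itself stood at 553 and 541 CPM in both wild-type libraries, 540.4 and 527 in those of the knockout, 483 and 534 in those of the mutant and 439 and 462 under overexpression, with overexpression lowest (-0.28 ± 0.04, adjusted p = 3.42e-05). The ratio of Rps27l to Rps27 gave an exact permutation p of 0.0381 (adjusted 0.0571), which rose to between 0.0571 and 0.114 without a knockout or an overexpression replicate.

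Rpl7l1, a nucleolar relative of Rpl7, stood at 289.9 and 280.5 CPM in both wild-type libraries, 321 and 315 in those of the knockout, 281 and 284 in those of the mutant and 285 and 294 under overexpression. It was highest in the knockout (0.16 ± 0.03, adjusted p = 0.00105) and was not called in overexpression (0.02 ± 0.03, adjusted p = 0.604). Rpl7 itself stood at 2901 and 2882 CPM in both wild-type libraries, 2982 and 2939 in those of the knockout, 2656 and 2727 in those of the mutant and 2334 and 2430.4 under overexpression, lowest in overexpression (-0.28 ± 0.04, adjusted p = 3.51e-06). Its counts were 9.99 and 9.73% of those of Rpl7 in wild type, 10.8 and 10.7% for the knockout, 10.6 and 10.4% for the mutant and 12.2 and 12.1% in overexpression (exact permutation p = 0.00952, adjusted 0.0286).

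Rpl3l, the muscle paralog of Rpl3, was near the limit of detection, at 0.659 and 0.504 CPM in both wild-type libraries, 0.874 and 0.838 in those of the knockout, 0.351 and 0.388 in those of the mutant and 0.881 and 0.886 under overexpression. Both knockout and both overexpression libraries lay above wild type and both mutant libraries below it. The ratio of Rpl3l to Rpl3 gave an exact permutation p of 0.00952 (adjusted 0.0286), with 38 to 52 counts in wild type. The edgeR changes were 0.55 ± 0.21, adjusted p = 0.0395 in the knockout and 0.60 ± 0.21, adjusted p = 0.0204 in overexpression, and both were lost with DESeq2 and without wild-type replicate 2. They were also lost without either replicate of the altered line.

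Rpl36al is a close paralog of Rpl36a. Both genes fell in overexpression, with Rpl36al at 152 and 152 CPM in wild type and 130.2 and 131 CPM in overexpression, and Rpl36a at 336 and 329 CPM in wild type against 295 and 301 CPM in overexpression. Their log2 changes were -0.22 ± 0.03, adjusted p = 2.68e-05 for Rpl36al and -0.16 ± 0.04, adjusted p = 0.00101 for Rpl36a. Their ratio gave an exact permutation p of 0.476, and 0.0381 and 0.00952 without mutant replicates 1 and 2. Rps27rt, named as a retrotransposed copy of Rps27, stood at 2.64 and 2.86 CPM in both wild-type libraries, 2.64 and 2.26 in those of the knockout, 1.86 and 2.67 in those of the mutant and 1.88 and 1.99 under overexpression and was called lower in overexpression (-0.50 ± 0.15, adjusted p = 0.00995). That call was lost without wild-type replicate 2 and without overexpression replicate 1. Reads of close copies may have been assigned to either.

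**Figure D5:**
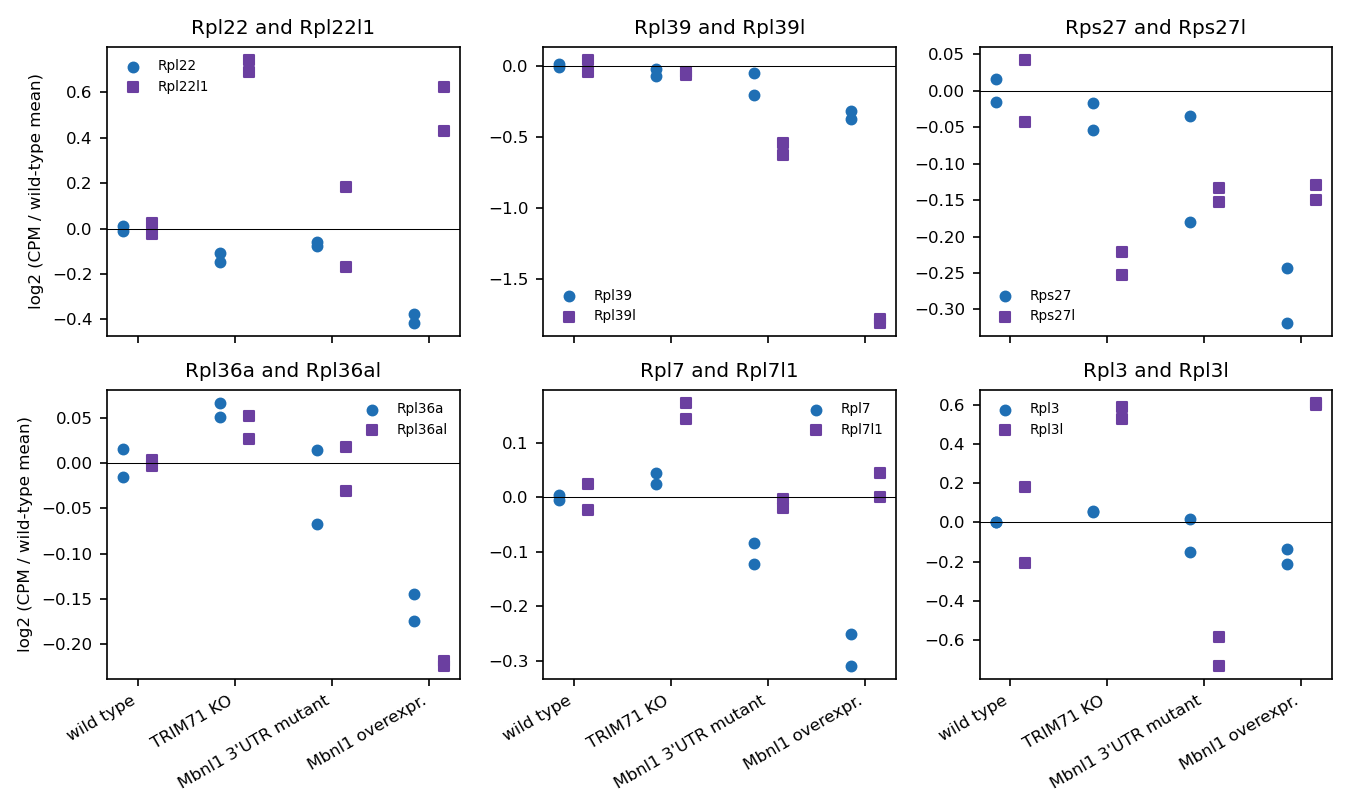
Log2 of the CPM over the wild-type mean (vertical axes, with different ranges) for 6 partners (circles) and their paralogs (squares) in each of the 8 libraries, by group (horizontal axis). Rpl22l1 and Rpl3l lie above 0 in knockout and overexpression, whereas Rpl39l falls by 0.59 in the mutant and 1.80 in overexpression.

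Ribosomal proteins outside the symbol rule included Fau, whose product includes S30, and Rack1, a scaffold on the small subunit. In overexpression Fau changed by -0.24 ± 0.04, adjusted p = 3.82e-05 and Rack1 by -0.23 ± 0.05, adjusted p = 0.000728. Other mRNAs known to carry a TOP motif also had more falls than rises in overexpression: 17 of 21 fell and 1 rose (median -0.18). Called lower were 27.2% of all genes and 41.6% of genes of 100 CPM or more, and called higher 27.7% and 25.6%. The elongation factor Eef1b2 changed by -0.43 ± 0.04, adjusted p = 1.65e-08, the splicing factor gene Hnrnpa1 by -0.47 ± 0.04, adjusted p = 4.34e-08 and the growth-associated Tpt1 by -0.39 ± 0.04, adjusted p = 1.76e-07, while Vim, of the cytoskeleton, rose (0.24 ± 0.05, adjusted p = 0.000325). In the knockout 8 of these 21 rose and 4 fell, beside 24.2% of all genes called higher and 20.9% lower, with Eef2 at 0.23 ± 0.04, adjusted p = 4.8e-05 and Eef1a1 at 0.18 ± 0.04, adjusted p = 0.00097.

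Lists of genes that build ribosomes had more falls than rises in overexpression. Of all genes 27.2% were called lower and 27.7% higher, and of genes of 100 CPM or more 41.6% lower and 25.6% higher. Of 38 large subunit assembly factors 26 fell and 3 rose (median -0.17), led by Tex10 (-0.49), Rsl24d1 (-0.37) and Wdr12 (-0.37). Of 20 small subunit assembly factors 11 fell (median -0.13), with Tsr1 at -0.28 and Krr1 at -0.28. Of 30 genes of the snoRNA particles and early processing 18 fell and 5 rose (median -0.12). Nop58, of the box C/D particle, changed by -0.31 ± 0.04, adjusted p = 3.55e-06, while its partner Nop56 changed by 0.84 ± 0.04, adjusted p = 2.49e-12. Of 13 chaperones and importers of ribosomal proteins 8 fell and 2 rose, with the importer Ipo7 at -0.28. Of 20 genes of RNA polymerase I and its factors 7 fell and 3 rose (median -0.04), a share of falls between those of both backgrounds. Going the other way, of 17 factors that act on ribosomes 9 rose and 4 fell (median 0.11).

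In the knockout the large subunit assembly factors were the list of this kind with the most falls, 17 of 38 with 3 rises (median -0.08), with Mak16 at -0.30 and Mdn1 at -0.28. The ribosomal protein genes of the large subunit had a median of 0.00 in the same comparison. Small subunit assembly factors had 5 falls and 2 rises among 20, and the snoRNA particle and processing genes 5 falls and 4 rises among 30. These counts stand beside 20.9% of all genes lower and 24.2% higher in the knockout.

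Of 8 primitive endoderm markers 1 reached 10 CPM on average, and their summed level was 185 to 186 CPM in wild type, 137 to 140.3 CPM for the knockout, 296 to 343 CPM for the mutant and 285 to 287 CPM in overexpression. The summed level of 9 fibroblast and feeder markers was 5.52 to 5.62 CPM in wild type, 12.0 to 13.1 CPM for the knockout, 5.46 to 5.71 CPM for the mutant and 7.79 to 8.48 CPM in overexpression. That of the 12 stem cell markers was 5582 to 5626 CPM in wild type, 6520 to 6549 CPM for the knockout, 6243 to 6277 CPM for the mutant and 6366 to 6447 CPM in overexpression. The summed level of 7 trophoblast markers was 64.2 to 64.6 CPM in wild type, 80.6 CPM in both knockout libraries, 31.8 to 33.0 CPM in the mutant and 32.3 to 33.1 CPM in overexpression. That of 6 neural markers was 139 to 141 CPM in wild type, 113 to 116 CPM for the knockout, 134 to 145 CPM for the mutant and 166 to 168 CPM in overexpression. On average 2 of the 7 trophoblast and 4 of the 6 neural markers reached 10 CPM. The part of these differences in the members' levels was not tested.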

How the data were processed

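Total RNA of 8 mouse embryonic stem cell libraries was sequenced, and the labels gave the groups. STAR 2.5.0 and the mm10 build are named in the submitters' processing notes. The authors deposited 1 file of unnormalized counts per gene for each library. The annotation release and the strand setting were not given in the sources used here. Identifiers without their version were matched to GENCODE M21, giving 42462 of 43346 genes a symbol.

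In R 4.3.3, edgeR 4.0.16 kept genes by filterByExpr (minimum count 10, total 15), 18055 of 27979 with a count, scaled by TMM and fitted 1 robust quasi-likelihood model to 4 groups (4 residual degrees of freedom, biological coefficient of variation 4.17%). Called means a Benjamini-Hochberg adjusted p under 0.05 over all genes tested. DESeq2 1.42.0, other scalings and filters, a replicate block and leaving out each library were alternatives. The procedure was tested on simulated data. Paralog ratios (prior count 0.5) were tested by exact permutation over all partitions of the 8 libraries into 4 groups of 2. Log2 changes are given ± SE. Transcripts for lengths and starts were the best ranked by APPRIS, then by support level, then the shortest. Neighbours were tested genes within 1 Mb that are no members, and snoRNA genes lying within a member were counted among them.

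Named members were the 8 largest called rises and falls per comparison with wild type, the paralogs with their partners, members fixed by role, and up to 5 called members per direction between altered lines. Further members not called in overexpression, Rps2 and the choice of start windows were named after their values were seen. Members and gene lists were chosen with earlier results of these data known, so their directions are no independent evidence.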

Additional observations from a re-analysis of the deposited data

How the results depend on the processing

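In overexpression 61 of the 77 called members were called in every alternative, against 5 of 14 in the knockout, 2 of 6 in the mutant, 6 of 23 for knockout against mutant, 48 of 70 for overexpression against mutant and 61 of 76 for knockout against overexpression. Over 2748 combinations of a named gene and an alternative, 2555 kept their side of the threshold, 152 lost it, 41 gained it and 0 reversed. For the mutant the count of called members moved from 6 to 11 with scaling by library size alone, 21 without the low-count filter, 10 with a mean of at least 1 CPM and 2 with only the groups compared; for the last 3 the genes tested or the libraries differ by construction, and for the first the cause was not tested. Leaving out a library gave 6 to 19 called members in the knockout, 3 to 34 in the mutant, 63 to 80 in overexpression, 7 to 39 for knockout against mutant, 55 to 76 for overexpression against mutant and 62 to 80 for knockout against overexpression. The paralog ratio p-values (unadjusted) ranged over left-out libraries from 0.0190 to 0.0857 for Rpl22l1, 0.0381 to 0.114 for Rps27l, 0.00952 to 0.0286 for Rpl39l, 0.00952 to 0.733 for Rpl36al and 0.00952 to 0.0190 for Rpl7l1 and Rpl3l. Another prior count left them as they were. Scaling per kb shifts the log2 ratio of every library alike and so cannot change them.

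No shared effect of the replicate number was seen: across genes, the replicate 1 minus replicate 2 differences of any 2 groups had correlations of -0.0343 to 0.06. With 1 difference per group, this cannot tell whether libraries were prepared in numbered pairs. With the replicate number as a block, 11 members were called in the knockout (44.0% of all genes), 7 in the mutant (15.2%) and 76 in overexpression (54.4%). Between altered lines it was 19 for knockout against mutant (44.6%), 73 for overexpression against mutant (51.5%) and 77 for knockout against overexpression (53.9%). Depth limits Rpl3l, Rpl39l, Rps27rt and Rpl24, which had the fewest counts.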

Other observations

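Of 12 genes of the MYC network and other transcription factors of these promoters, 6 fell and 3 rose in overexpression, beside 27.2% of all genes called lower and 27.7% higher. Mycn, the MYC family member of early embryos, stood at 201 and 188 CPM in both wild-type libraries, 193 and 201 in those of the knockout, 151 and 146 in those of the mutant and 88.9 and 87.3 under overexpression (log2 change in overexpression -1.14 ± 0.04, adjusted p = 1.56e-13). Both overexpression libraries were lowest. Myc stood at 106 and 101 CPM in both wild-type libraries, 75.2 and 73.0 in those of the knockout, 119.9 and 109.7 in those of the mutant and 71.4 and 74.2 under overexpression, with changes of -0.51 ± 0.04, adjusted p = 2.62e-08 in overexpression and -0.48 ± 0.04, adjusted p = 9.8e-08 in the knockout, both groups being under wild type. Of 21 regulators of mTORC1 and TOP mRNAs, 8 fell and 4 rose in overexpression, beside the same shares of all genes and 41.6% lower among genes of 100 CPM or more. Sesn2, an inhibitor of mTORC1, changed by -0.37 ± 0.03, adjusted p = 6.33e-08.

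Genes of the path from ribosomal proteins to p53 were lower in the knockout for 8 of 12 tested and higher for 1, beside 20.9% of all genes called lower and 24.2% higher. Mdm2, the ubiquitin ligase and target of p53, stood at 149 and 152 CPM in both wild-type libraries, 101 and 102 in those of the knockout, 130.2 and 126 in those of the mutant and 116 and 117 under overexpression. Its knockout libraries were lowest (-0.57 ± 0.03, adjusted p = 5.87e-10). Further targets of p53 changed by -1.05 (Zmat3), -0.75 (Phlda3), -0.54 (Bbc3) and -0.50 (Ccng1) on the log2 scale, while Trp53 itself changed by 0.09 ± 0.03, adjusted p = 0.0414. In overexpression 6 of the 12 were lower and 2 higher, beside 27.2% of all genes lower and 27.7% higher, with Ccng1 at -0.56 ± 0.04, adjusted p = 1.55e-09. Adjusted p-values are those of edgeR's quasi-likelihood test over all genes.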
